A study of Mus musculus with 7 samples.

Results

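The genes described here are Cited4 and a set of related transcriptional coregulators: Cited1, Cited2 and Cited4 of the CITED family, Ppargc1a, Ppargc1b and Pprc1 of the PGC-1 family, Perm1 and Nrip1. They are 8 genes, found by gene name or RefSeq accession among the probes of the array, and they were measured by 10 of its 39429 probes. Cited4 was selected on its large log2 fold change between the genotypes on these same arrays, and the others were chosen for their kinship with it or with PGC-1 once their values in this contrast were known. Their differences are therefore given as descriptions, without a p-value.

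Quadriceps RNA was hybridized to single-dye Agilent mouse arrays, 1 array per mouse, from 4 WT and 3 AR113Q mice of 3 months on the C57BL/6 strain. AR113Q mice are a knock-in model of spinal and bulbar muscular atrophy (SBMA), in which the affected gene carries a humanized segment with an expanded CAG repeat at its own locus, so that the mutant protein is present in all cells that use the gene, not in muscle alone. The labels call the controls WT, whereas the study's text speaks of knock-in mice with a short repeat, and which of these the control arrays hold cannot be told apart here. The series also writes the mutant as AR113Q-NCD without explaining the suffix.

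CITED proteins do not bind DNA themselves. They bind the histone acetyltransferases CBP and p300 and bring them to DNA-bound factors, and Cited4 is known from the heart and skeletal muscle as a gene that responds to exercise training. PGC-1α, the product of Ppargc1a, joins nuclear receptors and nuclear respiratory factors at genes of mitochondrial biogenesis and oxidative metabolism, and it is induced by exercise, fasting and cold. PGC-1β, from Ppargc1b, and PRC, from Pprc1, share its domains. Perm1 is a muscle protein induced by PGC-1 and the estrogen-related receptors (ERR) that sustains part of their program. Nrip1, also called RIP140, is a corepressor of the same receptors in muscle and fat. The set therefore joins coactivators, their effector and an opponent, and is no single protein family.

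Promoter sequence was at hand for 7 of the 8 members. The 250 bases before the annotated start (RefSeq, GRCm38.p6) are shown for Cited4 and Perm1, the members with the largest differences, and for Ppargc1a, the founder of the PGC-1 family. Cited4 spans chr4:120666313-120666562 and Perm1 chr4:156215677-156215926, both on the plus strand, while Ppargc1a spans chr5:51567726-51567975 on the minus strand. Capitals mark every match, on either strand, to the 8 motifs searched.
Cited4: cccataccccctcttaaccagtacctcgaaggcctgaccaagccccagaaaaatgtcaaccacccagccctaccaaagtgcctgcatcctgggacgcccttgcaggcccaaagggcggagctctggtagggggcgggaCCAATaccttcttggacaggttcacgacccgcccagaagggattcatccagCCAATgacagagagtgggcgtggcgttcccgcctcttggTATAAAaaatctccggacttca
Perm1: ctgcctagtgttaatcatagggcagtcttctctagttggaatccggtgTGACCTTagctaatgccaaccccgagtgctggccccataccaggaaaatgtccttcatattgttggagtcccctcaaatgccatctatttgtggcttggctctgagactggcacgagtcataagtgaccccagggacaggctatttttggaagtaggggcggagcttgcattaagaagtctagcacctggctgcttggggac
Ppargc1a: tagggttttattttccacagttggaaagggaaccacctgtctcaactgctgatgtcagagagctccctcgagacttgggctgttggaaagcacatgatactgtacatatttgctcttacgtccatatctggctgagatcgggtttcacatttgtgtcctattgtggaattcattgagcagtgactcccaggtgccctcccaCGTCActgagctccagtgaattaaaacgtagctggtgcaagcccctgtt
The motifs were the core of the ERR element (AAGGTCA), the half-site of steroid receptors (TGTTCT), the full cyclic AMP response element (TGACGTCA), the half-site that this element contains (TGACG), the nuclear respiratory factor 1 element, the E-box (CACGTG), the core of the TATA box (TATAAA) and the core of the CAAT box (CCAAT). In Cited4 the capitals are CCAAT at 112 to 108 and at 61 to 57 bases before the start, and TATAAA at 22 to 17 bases. In Perm1 they are the ERR core on the opposite strand, 202 to 196 bases before the start. In Ppargc1a they are the cyclic AMP half-site on the opposite strand, 49 to 45 bases before the start. Among 32851 promoters of the same length, CCAAT was found in 33.8%, TATAAA in 12.4%, AAGGTCA in 4.08% and TGACG in 17.8%. Of the 10 member promoters searched, which include 3 of Cited1 and 2 of Nrip1, the ERR core also lay in 1 promoter of Cited1. TGTTCT, present in 16.1% of all promoters, was not among these letters in any of the 10. These matches describe letters in the windows and show no binding.

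Each array held between 18785 and 22013 probes that were well above background (47.6% to 55.8%), with 0 saturated spots. Signals are given below as quantile-normalized log2 intensity, which ranks a probe between arrays and not against other probes. A probe entered the tests when at least 3 arrays showed it well above background, which held for 20991 probes. A probe was called when its adjusted p from limma was at most 0.05 and its log2 fold change, AR113Q minus WT, was at least 1 in either direction. All 8 markers of the muscle fiber were measured and 0 of them were called, with a median log2 fold change of -0.23. The arrays lay on 5 slides, and slide 2 alone held both genotypes, namely WT replicate 2 and AR113Q replicate 1. Bulk RNA cannot tell fewer cells of a type from less RNA per cell.

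Cited4 was bright in every WT muscle and dim in every AR113Q muscle. Its probe (A_52_P426768, on chromosome 4 of mm9 from 120340245 to 120340304) had log2 intensities of 12.15, 11.51, 12.03 and 12.30 on the WT arrays and of 5.27, 5.36 and 7.08 on the AR113Q arrays. The genotypes were 4.43 log2 units apart at their nearest values, and AR113Q replicate 3 was the highest of its group. The means were 12.00 ± 0.35 (SD, n = 4) and 5.91 ± 1.02 (SD, n = 3), and the log2 fold change was -6.09 (standard error 0.43), or 68.2-fold lower. Before normalization between arrays, the spot intensities were 2895, 2793, 3641 and 4369 in WT and 35.7, 55.1 and 153 in AR113Q muscle. All 7 arrays showed the probe well above background, but the AR113Q signals were dim. Among the kept probes this was the decrease of rank 2.

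The size of the Cited4 difference changed with the background correction, to -4.36 with normexp and -4.55 without subtraction. It was -3.92 with the authors' own values, which were also quantile normalized but cover 18592 probes. Which step of their processing made the difference was not tested. Within slide 2, AR113Q replicate 1 minus WT replicate 2 was -6.23, and without AR113Q replicate 3 the difference was -6.66. The adipocyte markers moved with the genotype beside it. All 7 were kept and 5 were called lower (13.1% of all genes were), with a median log2 fold change of -1.39, and their summed linear signal was 61112 to 103333 in WT and 38591 to 46643 in AR113Q muscle. Of the brown adipocyte markers, Ucp1 and Elovl3 were too dim to be kept, Cidea was 3.47 higher and called, and Cox8b was 0.05. The summed signal of the muscle fiber markers was also lower, 552152 to 741606 in AR113Q against 787521 to 836570 in WT. The macrophage sum was 6282 to 11356 in WT and 4171 to 5678 in AR113Q muscle, and the Schwann cell sum 1901 to 4286 and 1255 to 1758. Other sums ran higher in AR113Q muscle, with overlap. The endothelial sum was 12260 to 13929 in WT and 13722 to 15657 in AR113Q muscle, and the fibroblast sum 64521 to 77728 and 71844 to 96623. The part of any of these in the Cited4 value was not tested.

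**Figure D1:**
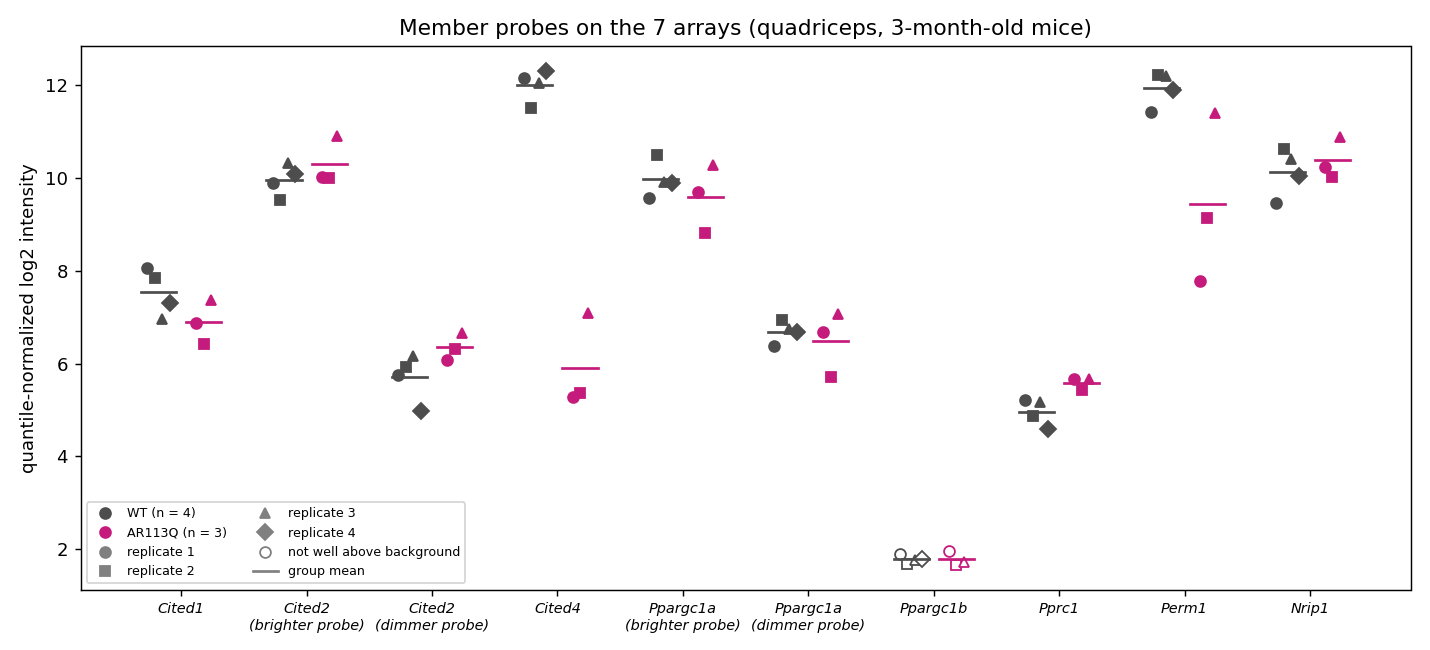
The vertical axis is the quantile-normalized log2 intensity of the 10 member probes, with 1 point per array (WT grey, AR113Q magenta, shape for the replicate number) and a line at each group mean; open points were not well above background. Cited4 shows 2 separate clusters, Perm1 runs from 7.77 to 11.39 within AR113Q, and most other members overlap between genotypes.

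Perm1 had the next largest difference, but the AR113Q mice did not share it equally. Its probe (A_51_P322473, on chromosome 4 of mm9 from 155595141 to 155595200) had log2 intensities of 11.41, 12.21, 12.19 and 11.90 on the WT arrays. The AR113Q arrays had 7.77, 9.14 and 11.39. AR113Q replicate 3 thus lay 0.02 below the lowest WT array, while replicate 1 was far under all WT arrays. In the authors' values the groups overlapped, with AR113Q replicate 3 at 11.67 and WT replicate 1 at 11.55. The means were 11.93 ± 0.37 (SD, n = 4) and 9.43 ± 1.83 (SD, n = 3), and the log2 fold change was -2.49 (standard error 0.72), or 5.63-fold lower. The AR113Q values of Perm1 spanned 3.62 log2 units, and their SD stood at percentile 99.7 among the kept probes, against percentile 78.2 for its WT values. The corresponding percentiles for Cited4 were 96.8 and 75.2.

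The Perm1 difference rested on single arrays more than that of Cited4. It was -1.66 without AR113Q replicate 1 and -3.46 without AR113Q replicate 3, and the pair on slide 2 differed by -4.44. The call was lost without AR113Q replicate 1, without AR113Q replicate 2 (-2.34), without WT replicate 2 (-2.41) or without WT replicate 3 (-2.41). With all arrays, it was also lost when dim probes were not filtered out, with the fold change unchanged. Neither gene was called with slide as a fixed effect. The marker sums given above apply here too, and their part in the Perm1 value was not tested.

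The PGC-1 family genes that could be measured, Ppargc1a and Pprc1, had differences under the fold threshold. Ppargc1a was measured by 2 probes. The brighter one, A_51_P279038, had log2 intensities of 9.56, 10.50, 9.91 and 9.88 in WT and 9.70, 8.80 and 10.26 in AR113Q muscle. These groups overlapped, and the log2 fold change was -0.37 (standard error 0.36). The dimmer probe, A_55_P2011702, had 6.37, 6.95, 6.75 and 6.67 against 6.68, 5.71 and 7.06, which gives -0.20 (standard error 0.31). Both probes put AR113Q replicate 2 lowest of all 7 arrays. Both signs turned, to 0.02 at the brighter and 0.18 at the dimmer probe, when AR113Q replicate 2 was left out. Without AR113Q replicate 3 they were -0.71 and -0.49.

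Pprc1, the serum-inducible member of the family, was dim on every array. The log2 intensities of A_55_P1991693 were 5.21, 4.88, 5.16 and 4.59 in WT and 5.67, 5.43 and 5.67 in AR113Q muscle. All AR113Q arrays lay above all WT arrays, by 0.22 at the nearest values, and the log2 fold change was 0.63 (standard error 0.19). That is under the fold threshold, and it shrank to 0.16 with normexp, to 0.17 without background subtraction and to 0.09 with the authors' values. Ppargc1b could not be measured. Its probe (A_55_P1993168) stayed under the well-above-background mark everywhere. It had log2 intensities of 1.68 to 1.91 in WT and 1.66 to 1.96 in AR113Q muscle, and no fold change is read from it.

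The other CITED genes overlapped between the genotypes. Cited1, which like its relatives carries the CBP- and p300-binding tail, had log2 intensities of 8.05, 7.84, 6.96 and 7.30 in WT and 6.87, 6.42 and 7.37 in AR113Q muscle at A_55_P1979833. The groups overlapped, and the log2 fold change was -0.65 (standard error 0.32). Cited2, an inhibitor of hypoxia-inducible factor signaling, had 9.89, 9.51, 10.31 and 10.09 in WT and 10.01, 9.999 and 10.90 in AR113Q muscle at its brighter probe, A_55_P2120577 (log2 fold change 0.35, standard error 0.28). Its dimmer probe, A_55_P2116621, gave 5.76, 5.93, 6.17 and 4.98 against 6.08, 6.31 and 6.67 (0.64, standard error 0.29). That shrank to 0.24 with normexp, to 0.26 without background subtraction and to 0.15 with the authors' values. The groups overlapped at both Cited2 probes, and the brighter one was 0.06 without AR113Q replicate 3 and 0.21 without WT replicate 2. Cited1 was -0.42 without AR113Q replicate 2 and -0.97 within slide 2. It was -0.37 with normexp, -0.39 without background subtraction and -0.28 with the authors' values.

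Nrip1, the corepressor, also overlapped between genotypes. The log2 intensities of A_51_P152747 were 9.45, 10.62, 10.40 and 10.04 in WT and 10.24, 10.01 and 10.87 in AR113Q muscle, and the log2 fold change was 0.25 (standard error 0.32). The difference was -0.38 within slide 2, 0.02 without WT replicate 1 and -0.0003 without AR113Q replicate 3.

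Over the set, 9 of the 10 probes, covering 7 genes, were kept. Of these, 2 were called (24.8% of all kept probes were), both of them lower (12.6% of all kept probes) and 0 higher (12.2%), and 3 reached the adjusted p alone (43.8% of all kept probes). The genotypes did not overlap at 3 of the 9, where 49.6% of all kept probes had no overlap. Because this contrast chose the members, nothing is read from these counts. The log2 fold change was negative at 5 of the 9 probes, with a median of -0.20, against 0.01 over all kept probes. AR113Q replicate 3 was the highest of the AR113Q arrays at all 9 kept member probes, the 7 not called included, whereas it was the highest at 33.5% of all kept probes. At Pprc1 this was near a tie, 5.668 against 5.665 for AR113Q replicate 1. With the authors' values AR113Q replicate 2 was the highest there, 7.797 against 7.794 for replicate 3. Cited2 and Ppargc1a count with 2 probes each. AR113Q replicate 3 was the only array on slide 5, so mouse and slide cannot be told apart.

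**Figure D2:**
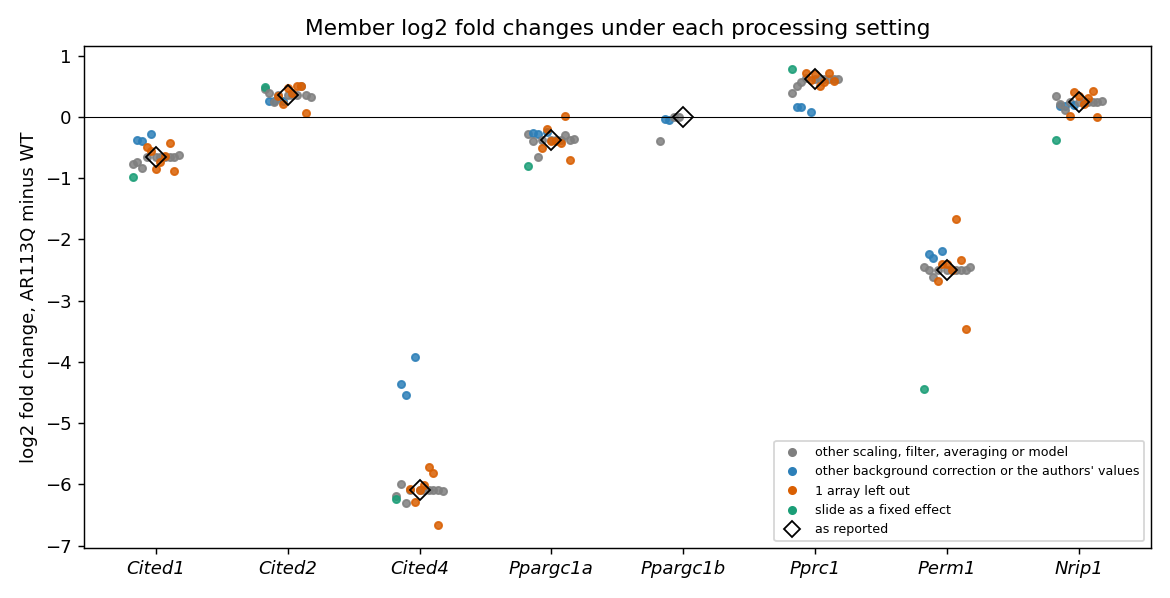
The vertical axis is the log2 fold change, AR113Q minus WT, of each member by its brightest probe; the diamond is the value as reported, and each point is 1 processing setting, coloured by its kind. Cited4 stays between -6.66 and -3.92 and Perm1 between -4.44 and -1.66, while Nrip1 and Ppargc1a have settings on both sides of 0. The Ppargc1b points come from a probe that no array showed well above background, and nothing is read from them.

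The genes that PGC-1 and the CITED proteins work with were read from lists of partners, regulators and targets, with each gene represented by its brightest kept probe. Over all 16549 genes so represented, 24.3% were called, 11.2% higher and 13.1% lower, and the median log2 fold change was -0.01. Among the 20 transcription factors that PGC-1 coactivates, 19 were kept, of which 4 rose, 2 fell and 13 were not called, with a median of 0.26.

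Foxo1, which directs fasting and atrophy genes in muscle, was 9.86, 11.58, 9.998 and 10.80 in WT and 12.08, 11.98 and 13.00 in AR113Q muscle (log2 fold change 1.79, standard error 0.44, adjusted p = 0.0125). All AR113Q arrays lay above all WT arrays, although the pair on slide 2 differed by 0.50. Nrf1, the nuclear respiratory factor, rose by 1.30 (standard error 0.17, adjusted p = 0.000888), with 7.46, 7.09, 7.60 and 7.46 in WT and 8.87, 8.57 and 8.67 in AR113Q muscle. Ppard, a fatty acid sensor of oxidative fibers, rose by 1.10 (standard error 0.19, adjusted p = 0.00281). Gabpa, which pairs with Gabpb1 as the other nuclear respiratory factor and is named outside the naming rule, rose by 1.08 (adjusted p = 0.00618). Gabpa was called in 16 of 22 settings, and was 0.86 without AR113Q replicate 1. Its call was also lost with the authors' values (0.55), with normexp (0.70) and without background subtraction (0.75). The call of Nrf1 was lost with the authors' values (0.80), with normexp (0.91) and without background subtraction (0.98), and that of Ppard without AR113Q replicate 2 (0.98).

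Rxrg, a partner of many nuclear receptors, fell most. It had 13.09, 12.80, 13.16 and 13.61 in WT and 10.23, 10.94 and 11.17 in AR113Q muscle (log2 fold change -2.38, standard error 0.28, adjusted p = 0.000480). Mef2c, a muscle transcription factor, was -1.11 (standard error 0.23, adjusted p = 0.00600), and was no longer called without AR113Q replicate 1 (-0.83), with normexp (-0.91), without background subtraction (-0.96) or with the authors' values (-0.86). Esrra and Ppara, named after their values were seen because they are the partners that PGC-1α is best known for, were not called. Esrra was -0.54 (standard error 0.29, adjusted p = 0.160; -0.19 without AR113Q replicate 1, -0.81 without AR113Q replicate 3 and -1.41 within slide 2) and Ppara 1.30 (standard error 0.51, adjusted p = 0.0691) by its brightest probe, although 1 of its 3 kept probes, which lay between 0.88 and 1.30, was called. The brightest probe of Ppara was itself called in 6 of 22 settings, among them without WT replicate 2 (1.68), and it was -0.25 within slide 2.

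Of the 18 upstream regulators of PGC-1 and CITED4, 17 were kept, of which 3 rose, 3 fell and 11 were not called, with a median of -0.03. The deacetylase Sirt1, which acts on PGC-1α, had 8.39, 8.44, 8.48 and 8.46 in WT and 9.90, 9.77 and 9.71 in AR113Q muscle (log2 fold change 1.35, standard error 0.14, adjusted p = 0.000305). The genotypes were far apart relative to their spread. Crtc3 (1.26, adjusted p = 0.00195) and Crtc2 (1.21, adjusted p = 0.00173), coactivators of CREB, rose as well, although Crtc3 stayed under the fold threshold with the authors' values (0.83), with normexp (0.90) and without background subtraction (0.95).

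Prkaa2, the AMPK catalytic subunit that predominates in muscle, had 12.32, 12.42, 12.35 and 12.15 in WT and 11.29, 10.73 and 10.90 in AR113Q muscle (log2 fold change -1.34, standard error 0.18, adjusted p = 0.000859). Mapk14, a p38 kinase, was -1.10 (adjusted p = 0.0131) and was called in 14 of 22 settings; its AR113Q values were 10.27, 11.49 and 11.20, and without the first of these the log2 fold change was -0.74. Prdm16, a PGC-1 partner of brown fat, was dim, -1.05 (adjusted p = 0.0225), and was called in 11 of 21 settings (-0.09 with the authors' values; not called without WT replicate 1, WT replicate 3, AR113Q replicate 2 or AR113Q replicate 3). Cebpb, a factor that restrains Cited4 in the heart, was not called, with 11.36, 11.76, 11.59 and 11.77 in WT and 12.15, 11.93 and 11.79 in AR113Q muscle (0.34, standard error 0.17, adjusted p = 0.146).

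Of the 19 cofactors that bind the CITED proteins, PGC-1 or Nrip1, 16 were kept, of which 1 rose, 0 fell and 15 were not called, with a median of -0.15. Tfap2a, Tfap2b and Tfap2c, the AP-2 factors that CITED proteins coactivate, were not kept. The gene called was Ep300, which encodes p300. Its dim probe had 4.07, 5.39, 4.88 and 4.70 in WT and 6.25, 5.71 and 5.85 in AR113Q muscle (log2 fold change 1.18, standard error 0.30, adjusted p = 0.0148). It was called in 13 of 21 settings, was 0.19 with the authors' values, and lost its call without WT replicate 1 (0.95) or AR113Q replicate 1 (0.99). Crebbp, which encodes CBP, had 11.70, 11.33, 11.31 and 11.29 against 10.86, 10.65 and 11.24 and was not called (-0.49, standard error 0.19, adjusted p = 0.0709).

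**Figure D3:**
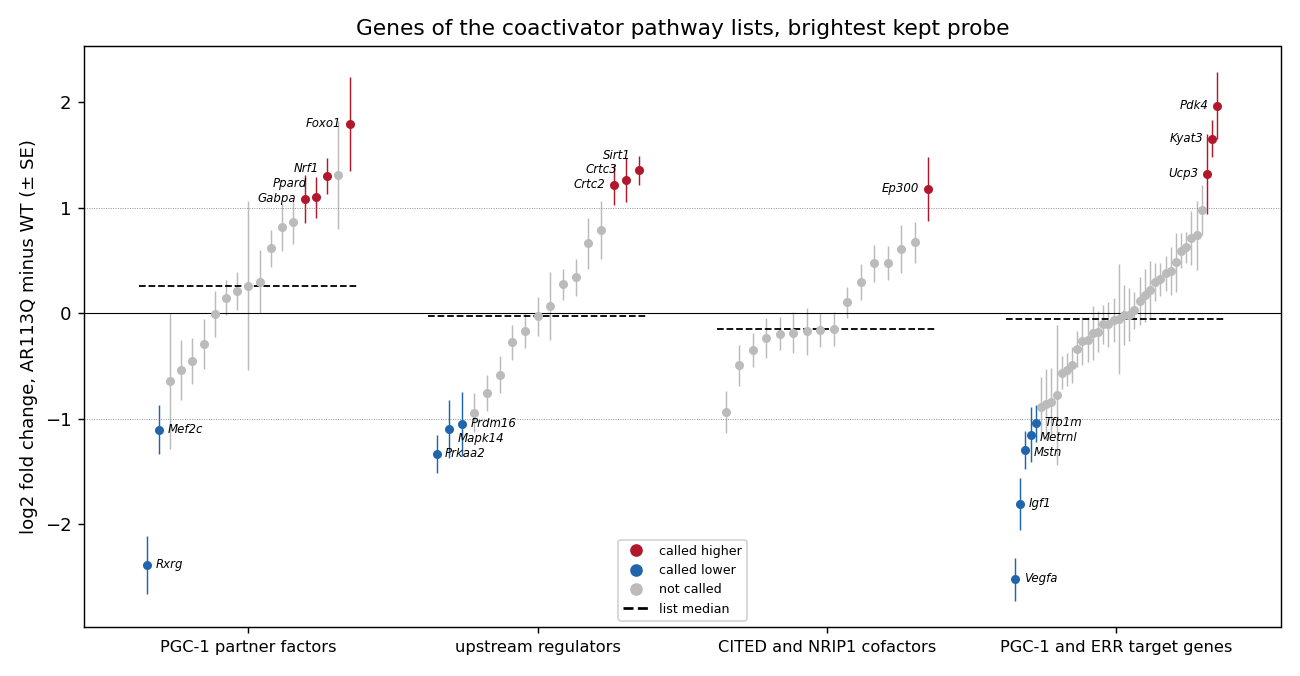
The vertical axis is the log2 fold change, AR113Q minus WT, with its standard error, for the kept genes of 4 lists in order of size; red and blue mark genes called higher and lower, grey those not called, dotted lines the fold threshold and dashed lines the list medians. The medians lie between -0.15 and 0.26, and the cofactor list has 1 called gene.

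Targets of PGC-1 and ERR were called in both directions. Of the 41 genes listed, 40 were kept, of which 3 rose, 5 fell and 32 were not called, with a median of -0.06. Pdk4, the kinase that turns off pyruvate dehydrogenase, had 13.67, 14.23, 13.17 and 13.48 in WT and 15.26, 15.34 and 16.22 in AR113Q muscle (log2 fold change 1.97, standard error 0.31, adjusted p = 0.00183). Kyat3, a kynurenine aminotransferase, rose by 1.65 (standard error 0.18, adjusted p = 0.000376). Ucp3, a mitochondrial carrier of muscle, was 1.32 (standard error 0.38, adjusted p = 0.0224), was called in 15 of 22 settings, and lost its call without WT replicate 1, AR113Q replicate 1 or AR113Q replicate 3. Within slide 2 the 3 differences were 1.03, 1.82 and 0.28. Over the 4 lists, 39 genes had several kept probes, and 12 of these had both called and uncalled ones. Of the 12, Foxo1, Nrf1, Mapk14, Ucp3 and Igf1 were counted as called by the brightest probe. The other 7, named here for that reason, were counted as not called, namely Ppara, Gabpb1, Mef2d, Rxra, Atf2, Med1 and Cat, and their highest probe lay between 1.03 for Cat and 2.09 for Gabpb1.

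The 5 targets that fell were Vegfa, Igf1, Mstn, Metrnl and Tfb1m. Vegfa, the angiogenic factor, had 12.45, 12.21, 12.36 and 12.38 in WT and 9.79, 9.46 and 10.23 in AR113Q muscle (log2 fold change -2.52, standard error 0.20, adjusted p = 0.000128). Igf1, a growth factor, was -1.81 (standard error 0.25, adjusted p = 0.000983), with its 5 kept probes between -3.16 and -0.88 and a difference of -1.11 within slide 2. Mstn, which encodes the growth inhibitor myostatin, was -1.30 (standard error 0.18, adjusted p = 0.000936). The remaining genes that fell, named outside the naming rule, were Metrnl (-1.15, adjusted p = 0.00860), which encodes a secreted factor, and Tfb1m (-1.05, adjusted p = 0.00219), a mitochondrial rRNA methyltransferase. Each was called in 15 of 22 settings, Metrnl not without WT replicate 4 (-0.996) or AR113Q replicate 1 (-0.90), and Tfb1m not without WT replicate 1 (-0.99) or AR113Q replicate 1 (-0.97). Tfam, the packaging factor of mitochondrial DNA, also named after its value was seen, was not called (-0.06, standard error 0.21, adjusted p = 0.827). Targets such as Vegfa, Igf1 and Mstn have many other regulators, and the share of any coactivator in their values was not tested.

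The probes most similar to Cited4 over the 7 arrays were sought among 14215 probes of other genes that had a symbol through RefSeq and that every array showed well above background. Col5a1, a fibrillar collagen chain, had the highest Pearson correlation, 0.998, followed by A830052D11Rik (0.997), Morn2 (0.997), Ldha (0.996) and Gtf3c5 (0.996). The genotypes form 2 clusters at Cited4, so these coefficients reflect mostly the difference between them, and the arrays share slides. After the genotype means were taken out, the coefficients were 0.942, 0.964, 0.914, 0.922 and 0.920 in the same order, and the choice of the highest coefficients raises these too. The sizes of the differences were unlike that of Cited4, with log2 fold changes of -2.78, -2.97, -0.79, -2.06 and -0.63. With the authors' values Col5a1 was -1.67, A830052D11Rik -2.13 and Morn2 -0.30, and as means over the probes of the gene Ldha was -1.47 and Gtf3c5 -0.39. Col5a1, for one, had 10.11, 9.82, 9.81 and 10.19 in WT and 6.97, 6.98 and 7.66 in AR113Q muscle, the array order that its choice by correlation favors. Ldha, the muscle subunit of lactate dehydrogenase, is given by a probe that is not its brightest.

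**Figure D4:**
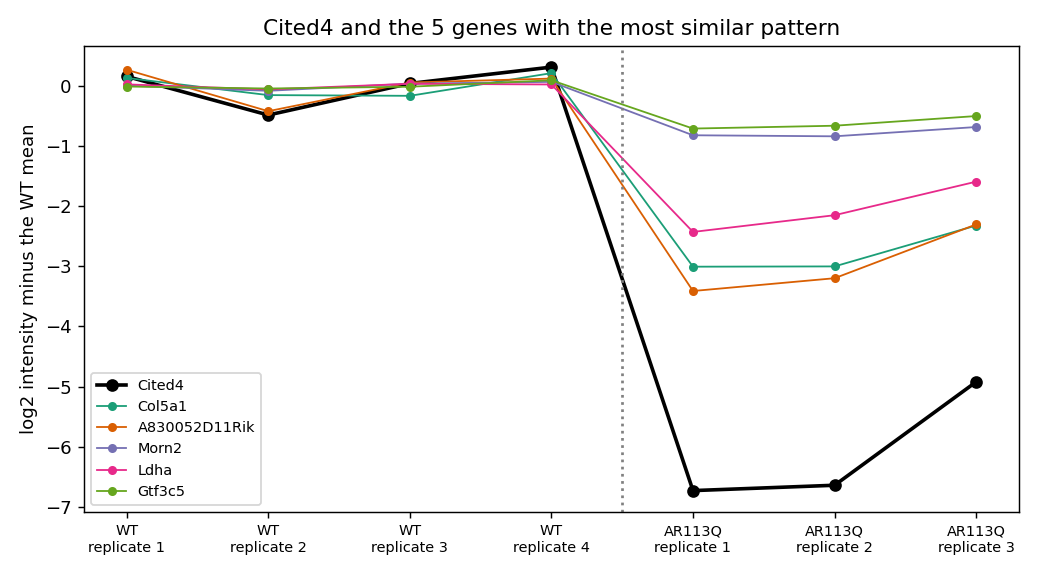
The vertical axis is the log2 intensity minus the WT mean of the same probe, over the 4 WT and 3 AR113Q arrays on the horizontal axis, for Cited4 (black) and the 5 probes most correlated with it. All 6 are lower on the AR113Q arrays and least so on AR113Q replicate 3.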

How the data were processed

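Quadriceps RNA of 7 mice was measured, 4 WT and 3 AR113Q, and each array was 1 replicate; p-values cover the spread between these mice. The authors labeled the RNA with Cy3 and, per the labels, extracted the spots with Agilent Feature Extraction 10.7.3.1. In the deposited scanner files each spot has an intensity from which background was subtracted, with no normalization between arrays. A deposited value table gives log2 intensities of 18592 probes after the authors' quantile normalization. Subtraction spreads the values of dim spots, so low signals depend most on it.

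Here the log2 intensities of noncontrol spots, without outlier spots (94 to 151 per array), were quantile normalized and spots of a probe were averaged. Probes well above background on fewer than 3 arrays were left out of the tests. Genotypes were compared with limma 3.58.1 (lmFit and eBayes, R 4.3.3), with Benjamini-Hochberg adjustment over 20991 probes. In simulated data for this comparison over the same probes, 200 probes were changed by 2 or by 1 on the log2 scale. The adjusted p alone, without the fold threshold, recovered 81.5% and 22.5% of them. Of the unchanged probes, 11 and 5 passed it. In the real data 5208 probes were called, many more than were changed in the simulation, so these shares need not hold there. Symbols came from RefSeq accessions (28330 probes) or else from the files. The members and lists were chosen with earlier results of these data known.

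Named were all member probes, the 3 largest increases and decreases called in each list, Cebpb, Ep300, Crebbp and the 5 probes most correlated with Cited4. Some measured genes are not reported here. The alternatives were scaling to percentile 75, normexp with an offset of 50, no background subtraction, the authors' values, outlier spots kept, no filter, a filter on all 7 arrays, 1 probe per gene or their mean, an intensity trend, slide as a random or fixed effect, a replicate block, array weights, no fold threshold and each array left out. Markers of 7 other cell types were also read. Of fibroblast markers 2 of 5 were called lower, and of macrophage markers 3 of 6 lower and 1 higher. Of Schwann cell markers 1 of 5 was called lower, and of endothelial markers 1 of 6 higher. Of brown adipocyte markers 1 of 2 kept was called higher, and of erythrocyte markers 0 of 3 were called. Over all genes 13.1% were called lower and 11.2% higher, and nothing is read from counts this small.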

Additional observations from a re-analysis of the deposited data

Results flagged for a closer look

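In the WT group of 4, 3 of 35 probes examined had 1 array set apart from the rest by the gap-to-range ratio of Dixon's test, which chance exceeds in about 1 group in 20. Mef2c had a ratio of 0.8515, with WT replicate 4 low (9.62 against 9.92 to 9.97). Crebbp had a ratio of 0.9015, with WT replicate 1 high (11.70 against 11.29 to 11.33). The Ldha probe similar to Cited4 had a ratio of 0.8773, with WT replicate 2 low (13.39 against 13.48 to 13.49). The member probes themselves were not set apart in this way.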

How the results depend on the processing

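Cited4 was selected on its difference (-6.09), so its sign and call over refits of these arrays are no sign of stability. Slide as a fixed effect leaves 1 pair of arrays; it was then -6.23 and not called. It was -4.36 with normexp, -4.55 without background subtraction and -3.92 with the authors' values. As reported, 5208 probes were called, 2 of them member probes, and 6 partner factors, 6 upstream regulators, 1 cofactor and 8 targets. With normexp the counts were 2088 probes, 3 regulators and 0 cofactors, without subtraction 2264, 3 and 0, and with the authors' values 1592, 3 and 0, with 3 partners. Cofactors were also 0 at percentile 75, with the all-array filter and with the replicate block. Without a filter 1 member probe was called, that of Cited4, and Perm1 was not called. With slide as a fixed effect all 6 counts were 0 by limma, with 7923 probes at an unadjusted p of at most 0.05. Without the fold threshold they were 9199 probes, 10 regulators, 4 cofactors and 15 targets. Leaving out single arrays, the counts ran from 4376 to 5544 probes, 1 to 2 member probes, 5 to 7 partners, 5 to 6 regulators, 0 to 2 cofactors and 6 to 11 targets, and Cited4 from -6.66 to -5.72. Causes were not tested. Replicate numbers did not pair the mice (correlations of deviations 0.04, -0.02 and 0.16); with the replicate block, 5190 probes were called and Cited4 was -5.99. Of the genes named from the lists, 26 were followed under each setting. These kept direction and side of the threshold in 456 of their alternative fits, lost the call in 78, gained it in 6 (all Ppara) and changed sign in 4. The sign changes were Ppara (-0.25 with slide fixed) and Tfam (0.0296 at percentile 75, and -0.2907 to 0.0819 with arrays left out). Dim probes (Cited4 in AR113Q, Pprc1, Ep300, Prdm16, Ppargc1b) are limited by signal over background.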
